A study of Homo sapiens with 5 samples.

Results

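The genes described here encode the subunits of the proteasome, its activators and the chaperones that assemble it, measured by RNA sequencing in KGN, a human cell line established from a granulosa cell tumour. They were chosen by symbol, as every protein-coding gene named PSM followed by a letter from A to G and a number. Of 48 such symbols in the count table, 46 averaged 20 or more scaled counts across 5 libraries and are the members, out of 35453 gene names in the table and 14584 that passed the same filter. The genes left out were PSMA8, an alpha subunit known from germ cells, with 0 counts in every library, and PSMB11, the thymus subunit, with 1.98 scaled counts in the PMA library and 0 in the other libraries. The lowest member that passed, PSMG4, had a mean of 355 scaled counts.

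All groups, the control included, received androstenedione, the substrate of aromatase, at 100 nmol/L, in charcoal-stripped DMEM/F12 medium, and RNA was taken after 24 h. The groups were FSH at 100 ng/mL (follicle-stimulating hormone), FSK (forskolin, which activates adenylyl cyclase), SC79 at 4 µg/mL (an activator of the kinase AKT), PMA (a phorbol ester that activates protein kinase C) and a control. The treatment labels give FSK as 10 mmol/L and PMA as 0.1 mmol/L, but the written protocol carries another unit character, so these doses are not settled here. The control is labelled as not treated, while the protocol has ethanol added to it. Each group is 1 library from 270 ng of RNA, pooled from 3 cultures with 90 ng each, so no replicate error can be given and groups were not tested. Every interval below is a 95% interval for counting error only, and all 4 comparisons share the single control library. Values are estimated counts per gene, scaled by edgeR's TMM factors to a common library size, and a difference is the log2 ratio after adding 1 scaled count.

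The libraries held 53493911 (FSH), 52311886 (FSK), 50218703 (SC79), 52168956 (PMA) and 58811603 (control) estimated counts in rows with a gene name. The granulosa markers FOXL2 (5451 to 10379 scaled counts), NR5A1 (4678 to 5186) and AMH (1490 to 2085) were present in all 5 libraries, and FSHR was low (36.6 to 132). The theca enzyme CYP17A1 had 2.04 to 13.6 scaled counts and the T cell marker CD3E had 0, whereas the stromal markers COL1A1 and PDGFRA were abundant in this line. The PMA library stood apart in several markers, with COL1A1 at 276510 scaled counts against 767307 in the control library and PDGFRA at 32507 against 19971. FOXL2 was at 5451 there against 9964, and the granulosa receptor gene AMHR2 at 15.8 against 98.1. In the FSK library the granulosa markers CYP19A1 and INHA were at 27409 and 920 scaled counts, against 900 and 61.4 in the control library. INHA was also low with FSH (93.8), SC79 (63.5) and PMA (74.1). CD68, a lysosomal protein used as a macrophage marker, was at 2176 scaled counts in the PMA library against 790.4 in the control library, while the leukocyte marker PTPRC was at 37.5 and 37.7. The part of these markers in the results below was not tested, and in bulk RNA fewer cells of a kind cannot be told apart from less RNA per cell.

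The 26S proteasome degrades proteins tagged with ubiquitin. Its 20S core is a barrel of alpha and beta rings with the proteolytic sites inside, and its 19S cap binds ubiquitin chains, removes them and unfolds the substrate with a ring of ATPases. Under interferon the catalytic beta subunits are replaced by the immunoproteasome forms, which favour peptides presented on MHC class I. In granulosa cells the ubiquitin-proteasome system is known for turnover of cell cycle and signalling proteins during follicle growth and luteinisation. Subunit genes are known to be transcribed together through NFE2L1, a membrane-bound factor released when proteasome activity is short.

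The scaled counts of the members summed to 217759 with FSH, 212291 with FSK, 220060 with SC79, 234904 with PMA and 220389 in the control library, highest with PMA and lowest with FSK. PSMD2 alone held 19588 of the FSK sum, 32569.5 of the PMA sum and 25902 of the control sum, so much of both differences lay in that gene. Their median log2 ratio was -0.02 in both the FSH and the FSK library, 0.01 in the SC79 library and 0.09 in the PMA library. Over all 14584 genes it was -0.01, 0.01, -0.01 and -0.00428 in the same order. The authors' normalized values, which do not equalise the libraries, put that median of all genes at -0.16, -0.16, -0.28 and -0.24, so higher and lower below refer to TMM scaling. Above the control library were 20 of 46 members with FSH, 20 with FSK, 26 with SC79 and 28 with PMA, beside 47.2%, 51.5%, 48.5% and 49.5% of all genes.

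No member differed from the control library by 2-fold under any treatment. Of all genes, requiring 100 scaled counts in the higher library, 0.261% were that much higher and 0.0891% lower with FSH, 3.57% and 4.68% with FSK, 0.192% and 0.0343% with SC79, and 3.15% and 3.14% with PMA. At a size of 1.2-fold, 0 members were higher or lower with FSH, beside 7.12% of all genes higher and 5.55% lower, and 0 with SC79, beside 7.95% and 7.62%. With FSK 0 members were higher and 6 were lower, beside 25.2% and 24.7% of all genes. With PMA 2 members were higher and 2 were lower, beside 23.3% and 24.6% of all genes. Abundance matters for these shares, since 43 members averaged at least 1000 scaled counts. Among all genes of that abundance, the share past 1.2-fold in either direction was 2.27% with FSH, 43.6% with FSK, 4.22% with SC79 and 38.9% with PMA, so the counts of 0 with FSH and SC79 are near the background. Across all 4 treatments 39 of the 46 members (84.8%) stayed within 1.2-fold of the control library, compared with 40.6% of genes of that abundance and 30.8% of all genes. Because the comparisons share 1 control library, a gene can lie on the same side in all 4 through that library alone. Below it in all 4 were 10 members, beside 18.2% of all genes, and above it in all 4 were 12, beside 16.8%.

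**Figure D1:**
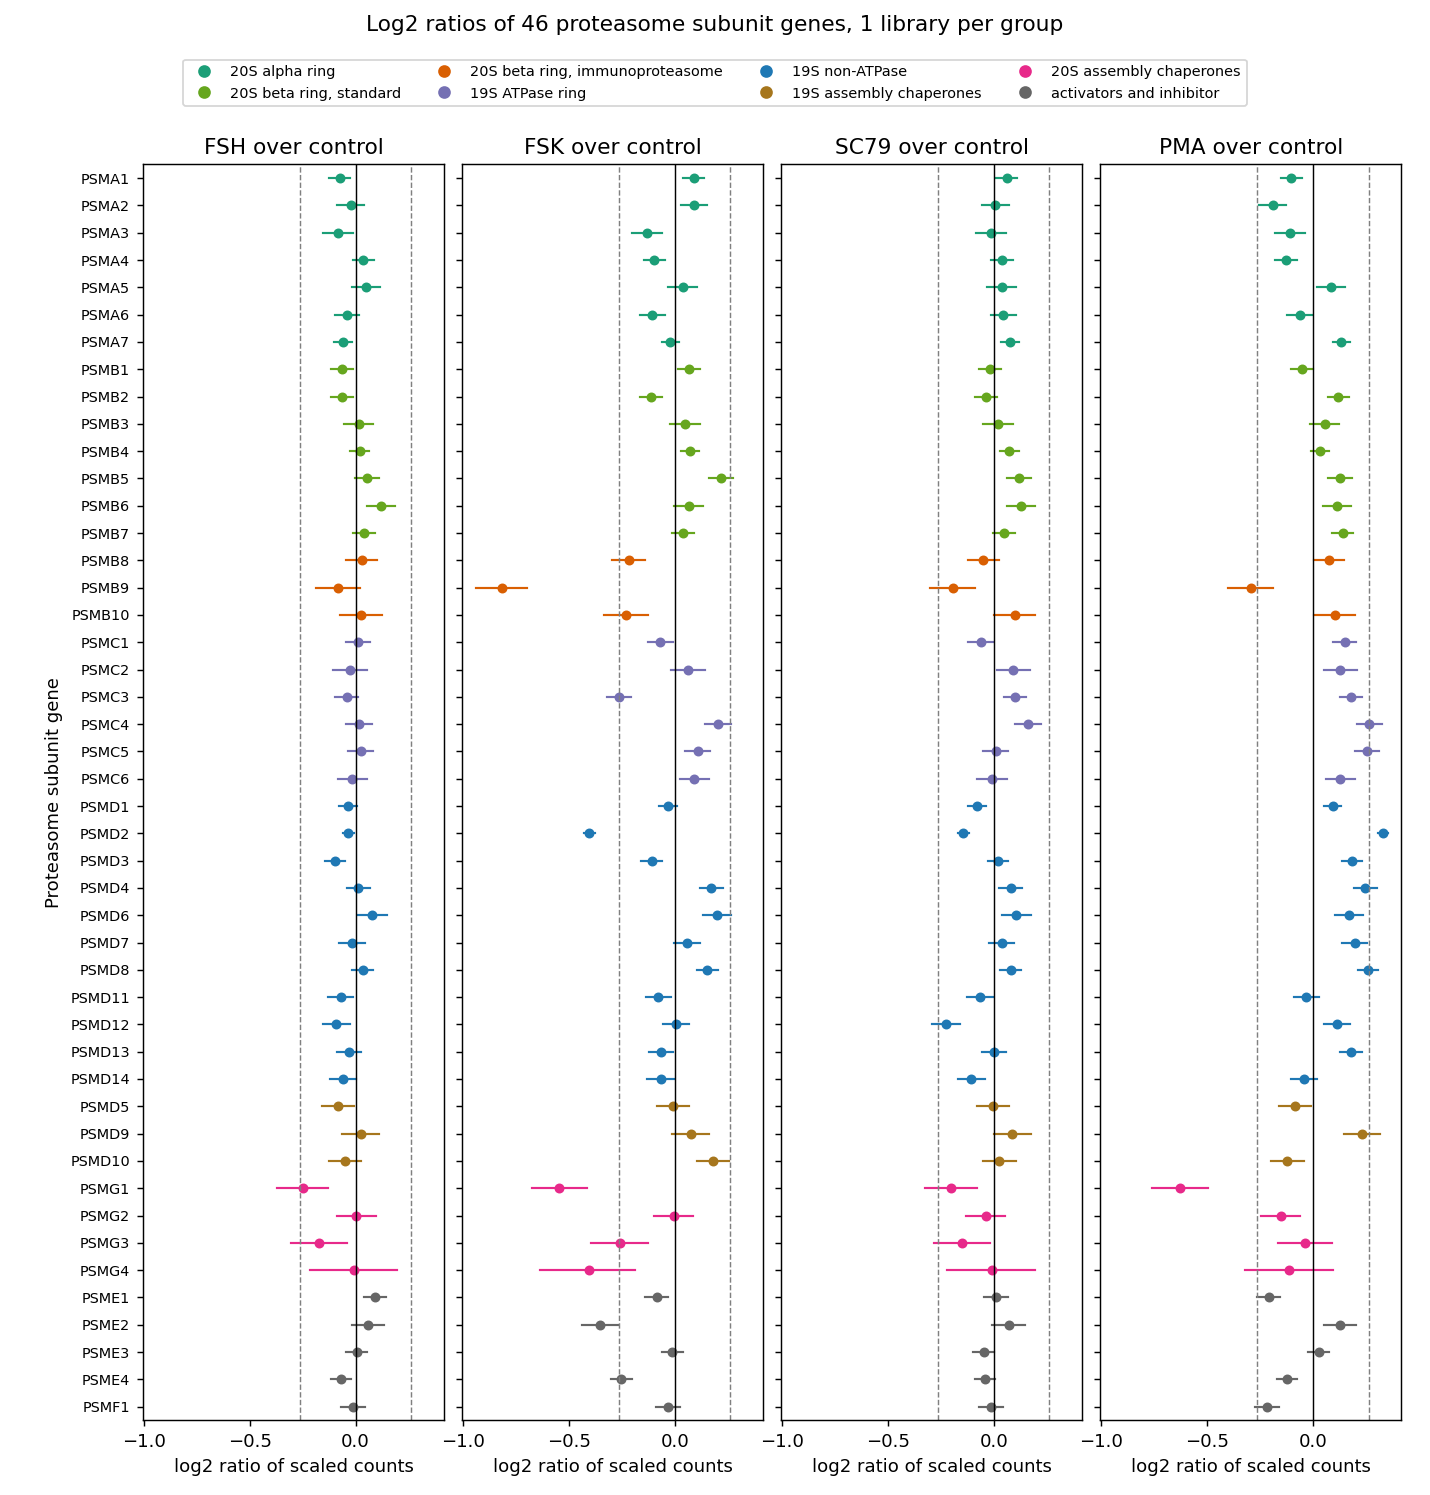
Log2 ratio of scaled counts of each of the 46 members (rows, coloured by role) in the FSH, FSK, SC79 and PMA libraries over the control library; points are ratios, bars are 95% counting intervals and dashed lines mark 1.2-fold. Most points lie between the dashed lines, with PSMB9 at -0.82 under FSK and PSMG1 at -0.63 under PMA farthest from 0.

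The 7 alpha subunits, which form the outer rings and the gate of the core, stayed within 1.2-fold throughout. PSMA7 had 8744 scaled counts with FSH, 8983 with FSK, 9601 with SC79, 9998 with PMA and 9108 in the control library. PSMA2 had 3761 with FSH, 4069.5 with FSK, 3839.7 with SC79, 3347 with PMA and 3820.1 in the control library. These were the highest and the lowest log2 ratios of the ring with PMA, at 0.13 and -0.19, and 5 of the 7 alpha genes were below the control library there, with a median of -0.10. PSMA3 had 3039 with FSH, 2940.3 with FSK, 3186 with SC79, 2988 with PMA and 3217 in the control library, the only alpha gene highest in the control. PSMA5 had 3521 with FSH, 3495 with FSK, 3493 with SC79, 3609.9 with PMA and 3404 in the control library, which was the lowest of the 5 for this gene. Because 62.3% of the 31-base words of PSMA2 occur in no other gene, part of its reads could belong to another gene.

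With PMA the 7 standard beta subunits leaned the other way, with 6 of 7 above the control library (median log2 ratio 0.11). With FSK 6 of 7 were also above it (median 0.07), beside 3 of 7 alpha genes (median -0.02). With SC79 5 of 7 beta genes (median 0.05) and 6 of 7 alpha genes (median 0.04) were above it. That alpha count was 5 with DESeq2 size factors, 7 with library totals alone and 0 on the authors' normalized values. Counting intervals of PSMB3, PSMB6 and PSMB7 with FSK, and of PSMB3 and PSMB4 with PMA, took in the control level. With SC79 those of PSMA2, PSMA3, PSMA4, PSMA5, PSMA6, PSMB1, PSMB2, PSMB3 and PSMB7 did so. PSMB5, the chymotrypsin-like site, had 4859 scaled counts with FSH, 5443 with FSK, 5089.8 with SC79, 5121 with PMA and 4681 in the control library. Its FSK ratio of 1.16-fold (interval 1.12 to 1.21) was the highest of any member with FSK. PSMB6, the caspase-like site, had 3708 with FSH, 3571 with FSK, 3727 with SC79, 3687 with PMA and 3410.4 in the control library, so that the control was the lowest library. PSMB7, the trypsin-like site, had 5979 with FSH, 5977 with FSK, 6025 with SC79, 6414 with PMA and 5817 in the control library, with PMA the highest. The structural subunits PSMB1 to PSMB4 complete the ring. PSMB2 had 5742 with FSH, 5552 with FSK, 5857 with SC79, 6532 with PMA and 6006 in the control library, and was the lowest of the ring with FSK, at a log2 ratio of -0.11. PSMB1 had 5642 with FSH, 6177 with FSK, 5829 with SC79, 5685 with PMA and 5893 in the control library, and was the lowest of the ring with PMA, at -0.05.

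The immunoproteasome genes were lowest in the FSK library. PSMB9, which takes the place of PSMB6, had 1444 scaled counts with FSH, 868 with FSK, 1338 with SC79, 1248 with PMA and 1529.8 in the control library. Its FSK value was 0.567-fold of the control (interval 0.522 to 0.617), the largest difference of any member, and its PMA value was 0.816-fold (interval 0.758 to 0.879). PSMB8, which takes the place of PSMB5, had 2954 with FSH, 2490.5 with FSK, 2798 with SC79, 3050.5 with PMA and 2894 in the control library. PSMB10, which takes the place of PSMB7, had 1613 with FSH, 1353 with FSK, 1697 with SC79, 1704 with PMA and 1585 in the control library. Both were lowest with FSK, at log2 ratios of -0.22 and -0.23, while with PMA they stood at 0.08 and 0.10. Exons of PSMB8 and PSMB9 overlap on opposite strands and the strand setting of the libraries is not stated, so reads of the overlap cannot be told apart. Both genes also overlap exons of PSMB8-AS1, and PSMB10 overlaps AC040162.1 on its own strand. In PSMB10, 69.8% of the 31-base words occur in no other gene, so part of its reads could belong to another gene.

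Set against the standard subunit within the same library, which needs no scaling, the immunoproteasome share was lowest with FSK. These ratios reuse the counts above and depend on both genes of a pair. With FSK the standard genes were at 1.16-fold (PSMB5), 1.05-fold (PSMB6) and 1.03-fold (PSMB7) of the control, and PSMB8 itself was at 0.861-fold. There were 38.9 PSMB9 counts per 100 PSMB6 counts with FSH, 24.3 with FSK, 35.9 with SC79, 33.9 with PMA and 44.9 in the control library. The FSK ratio was 0.542-fold of the control ratio (interval 0.492 to 0.596). For PSMB8 per 100 PSMB5 counts the values were 60.8 with FSH, 45.8 with FSK, 54.98 with SC79, 59.6 with PMA and 61.8 in the control library, a FSK ratio of 0.740-fold (interval 0.693 to 0.790). For PSMB10 per 100 PSMB7 counts they were 27.0 with FSH, 22.6 with FSK, 28.2 with SC79, 26.6 with PMA and 27.2 in the control library, a FSK ratio of 0.831-fold (interval 0.767 to 0.900). These counts are not divided by length, so they compare libraries and not the amounts of the subunits of a pair.

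**Figure D2:**
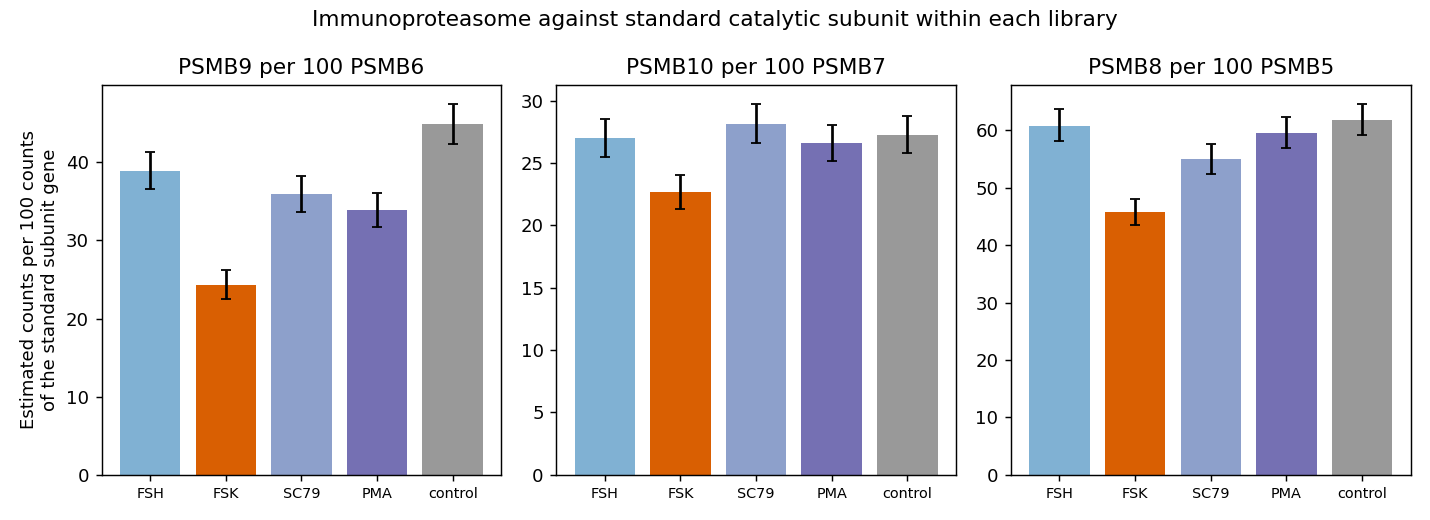
Estimated counts of PSMB9, PSMB10 and PSMB8 per 100 counts of the standard subunit gene each replaces, by library (FSH, FSK, SC79, PMA, control); bars are the ratios and error bars 95% counting intervals. The FSK bar is the lowest of each panel, at 24.3, 22.6 and 45.8.

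The PSMB8 and PSMB9 genes lie next to TAP1 and TAP2, the peptide transporter genes, in the MHC region of chromosome 6. TAP1 had 5789 scaled counts with FSH, 5458 with FSK, 5149.6 with SC79, 5727 with PMA and 5764 in the control library, log2 ratios of 0.01, -0.08, -0.16 and -0.01 for the treatments in that order. TAP2 had 3683 with FSH, 2712 with FSK, 3165 with SC79, 3802 with PMA and 3523 in the control library, and was 0.770-fold with FSK (interval 0.732 to 0.809), lowest in that library like PSMB8 and PSMB9. TAP1 and PSMB9 start from opposite strands of one stretch, and their FSK log2 ratios were -0.08 and -0.82. IRF1, an interferon-regulated factor known to drive immunoproteasome genes, had 4446 with FSH, 1803 with FSK, 4226 with SC79, 3131 with PMA and 4288 in the control library. Like PSMB9 it was lowest with FSK and next lowest with PMA, and its part in the PSMB9 values was not tested. Of the 18 genes of antigen processing and interferon signalling, 6 were at least 1.2-fold higher and 4 lower with FSK, and 5 higher and 7 lower with PMA, beside 25.2% and 24.7% of all genes with FSK and 23.3% and 24.6% with PMA. The highest of that list with FSK was STAT2 (0.42) and the lowest were IFNGR2 (-0.41) and IRF1 (-1.25), and the PMA extremes were STAT2 (0.60), IRF9 (0.59), TAPBP (-0.42) and IRF1 (-0.45). HLA-B, HLA-C and B2M, which encode chains of MHC class I, were 1.2-fold or more above the control library with FSK while PSMB9 was below it, with log2 ratios of 0.34, 0.32 and 0.36.

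Promoter windows from RefSeq (GRCh38.p14, 250 bases before to 50 after each annotated start) were found for 40 of the 46 members, with none for PSMA7, PSMB1, PSMB6, PSMB7, PSMD4 and PSMG3. The letters GAAA repeated after a gap of any 2 bases, a repeat that interferon regulatory factors are known to bind, were searched on both strands. They lay in the windows of 7 members, or 17.5%, beside 4.38% of all 27305 genes with a window and 4.09% of those past the filter. The 7 were PSMA4, PSMB4, PSMB8, PSMB10, PSME1, PSME2 and PSMG4. The stretches below are shown because they lie in immunoproteasome, activator and chaperone genes described here and in TAP1, printed 5′ to 3′ on the gene's strand with the match in capitals, which in some reads as the reverse complement.
PSMB8 (chr6:32844017-32844077, minus strand): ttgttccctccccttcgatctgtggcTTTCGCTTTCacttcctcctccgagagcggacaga
PSMB10 (chr16:67936837-67936897, minus strand): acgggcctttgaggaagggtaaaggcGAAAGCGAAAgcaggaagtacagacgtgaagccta
PSME1 (chr14:24136173-24136233, plus strand): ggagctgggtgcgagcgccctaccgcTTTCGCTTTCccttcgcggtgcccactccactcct
PSME2 (chr14:24146604-24146664, minus strand): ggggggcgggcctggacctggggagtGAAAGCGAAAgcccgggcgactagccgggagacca
PSMG4 (chr6:3258888-3258948, plus strand): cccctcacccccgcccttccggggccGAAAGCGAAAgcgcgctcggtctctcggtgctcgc
TAP1 (chr6:32853804-32853864, minus strand): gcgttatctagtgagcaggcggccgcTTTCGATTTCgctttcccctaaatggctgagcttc
In TAP1 a second match overlaps the one shown. The window of PSMB9, the member lowest with FSK, held no such match, and it is printed whole and in lower case for that reason. The TAP1 stretch above lies on the same chromosome just before this window begins, so the lack of a match holds for these 300 bases and not for the stretch that both genes start from.
PSMB9 (chr6:32853942-32854241, plus strand): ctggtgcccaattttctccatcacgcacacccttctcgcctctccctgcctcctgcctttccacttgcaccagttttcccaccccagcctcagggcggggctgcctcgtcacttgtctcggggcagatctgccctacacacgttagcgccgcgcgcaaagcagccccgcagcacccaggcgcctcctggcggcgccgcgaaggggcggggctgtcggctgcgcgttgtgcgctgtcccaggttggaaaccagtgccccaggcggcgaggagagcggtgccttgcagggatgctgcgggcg
A match is a run of letters in a window and not a measured binding site.

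The activators cap the core in place of 19S, and the inhibitor gene PSMF1 is listed with them. PSME2, which forms the interferon-induced PA28 ring with PSME1, had 2714 scaled counts with FSH, 2039 with FSK, 2735 with SC79, 2848 with PMA and 2603 in the control library. With FSK it was 0.783-fold of the control (interval 0.739 to 0.830). Its partner PSME1 had 5650.1 with FSH, 4995 with FSK, 5341 with SC79, 4584 with PMA and 5300.0 in the control library. PSME1 was therefore lowest with PMA and PSME2 lowest with FSK, so the partners of this ring did not share an order of libraries. PSME3, which forms the nuclear PA28 gamma ring, was level, at 6347 with FSH, 6275 with FSK, 6115 with SC79, 6448 with PMA and 6322 in the control library. PSME4, the PA200 activator known from chromatin and germ cells, had 7112 with FSH, 6264 with FSK, 7236 with SC79, 6845 with PMA and 7454 in the control library. PSMF1, the PI31 protein first described as an inhibitor of the core, had 4953 with FSH, 4881 with FSK, 4949 with SC79, 4295 with PMA and 4991 in the control library, lowest with PMA at 0.861-fold. All 5 genes of this group were below the control library with FSK, with a median log2 ratio of -0.09.

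Most 19S genes were higher with PMA, except on the authors' normalized values, where 5 of 17 were above the control library and the shift of all genes is -0.24. On TMM scaling all 6 ATPases and 9 of the 11 other cap subunits were above the control library, 15 of 17 in all, with a median log2 ratio of 0.18 beside -0.00428 for all genes. PSMD2, the large scaffold subunit and the most abundant member, had 25306 scaled counts with FSH, 19588 with FSK, 23449.5 with SC79, 32569.5 with PMA and 25902 in the control library. It was 1.26-fold of the control with PMA (interval 1.24 to 1.28) and 0.756-fold with FSK (interval 0.742 to 0.770). PSMC4, an ATPase of the ring, had 3943 with FSH, 4486 with FSK, 4363 with SC79, 4687 with PMA and 3897 in the control library, and was 1.203-fold with PMA (interval 1.15 to 1.25). The control library was the lowest of the 5 for PSMC4. PSMD8, a lid subunit, had 6361 with FSH, 6916 with FSK, 6566 with SC79, 7434 with PMA and 6212 in the control library, a log2 ratio of 0.26 that lies just inside 1.2-fold. PSMC5 and PSMD4, an ATPase and a ubiquitin receptor of the cap, both reached 0.25 with PMA. PSMC6, an ATPase, had 3191 with FSH, 3438 with FSK, 3200.2 with SC79, 3525 with PMA and 3223 in the control library, the smallest PMA ratio of the ATPase ring at 0.13. PSMC1, another ATPase, was at 0.15 with PMA, but 14.3% of its 31-base words are its own, so its counts could be shared with a near-identical copy. The exceptions below the control library were PSMD11 (-0.03), a lid subunit, and PSMD14 (-0.04), the deubiquitinase of the lid. PSMD14 had 3972 with FSH, 3949.9 with FSK, 3841 with SC79, 4023 with PMA and 4136 in the control library.

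Summed within a library, counts of the 19S genes relative to the alpha and standard beta genes of the 20S core, with the immunoproteasome genes left out, were highest with PMA. There were 1.38 counts of 19S genes per count of these 20S genes with FSH, 1.30 with FSK, 1.33 with SC79, 1.58 (interval 1.57 to 1.60) with PMA and 1.40 (interval 1.38 to 1.41) in the control library. PSMD2 is a large part of the 19S sum, and without it the ratios were 1.03 with FSH, 1.04 with FSK, 1.02 with SC79, 1.15 (interval 1.13 to 1.16) with PMA and 1.04 (interval 1.03 to 1.05) in the control library. This ratio is taken within a library and does not depend on scaling.

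With FSK the 19S genes did not move as a block, and 9 of 17 were above the control library. PSMC3, an ATPase, had 5254 scaled counts with FSH, 4501 with FSK, 5793 with SC79, 6125 with PMA and 5405 in the control library, and its FSK ratio of 0.833-fold (interval 0.800 to 0.866) lies at the edge of 1.2-fold. PSMC4 and PSMD6, a lid subunit, were at a log2 ratio of 0.20 in the same library. PSMD6 had 3534 with FSH, 3839.7 with FSK, 3598 with SC79, 3759 with PMA and 3343 in the control library. With SC79 the lowest member of all was PSMD12, a lid subunit, which had 3756 with FSH, 4016 with FSK, 3423 with SC79, 4324 with PMA and 4000.0 in the control library, 0.856-fold with SC79 (interval 0.817 to 0.896). The same SC79 library held PSMC4 at 0.16, the highest member there, then PSMB6 at 0.13 and PSMB5 at 0.12, and next lowest after PSMD12 were PSMG1 at -0.20 and PSMB9 at -0.19. With FSH the highest members were PSMB6 (0.12), PSME1 (0.09) and PSMD6 (0.08) and the lowest were PSMG1 (-0.25), PSMG3 (-0.17) and PSMD3 (-0.10), all inside 1.2-fold. PSMD3, a lid subunit, had 6619 with FSH, 6563 with FSK, 7172 with SC79, 8046 with PMA and 7079 in the control library.

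**Figure D3:**
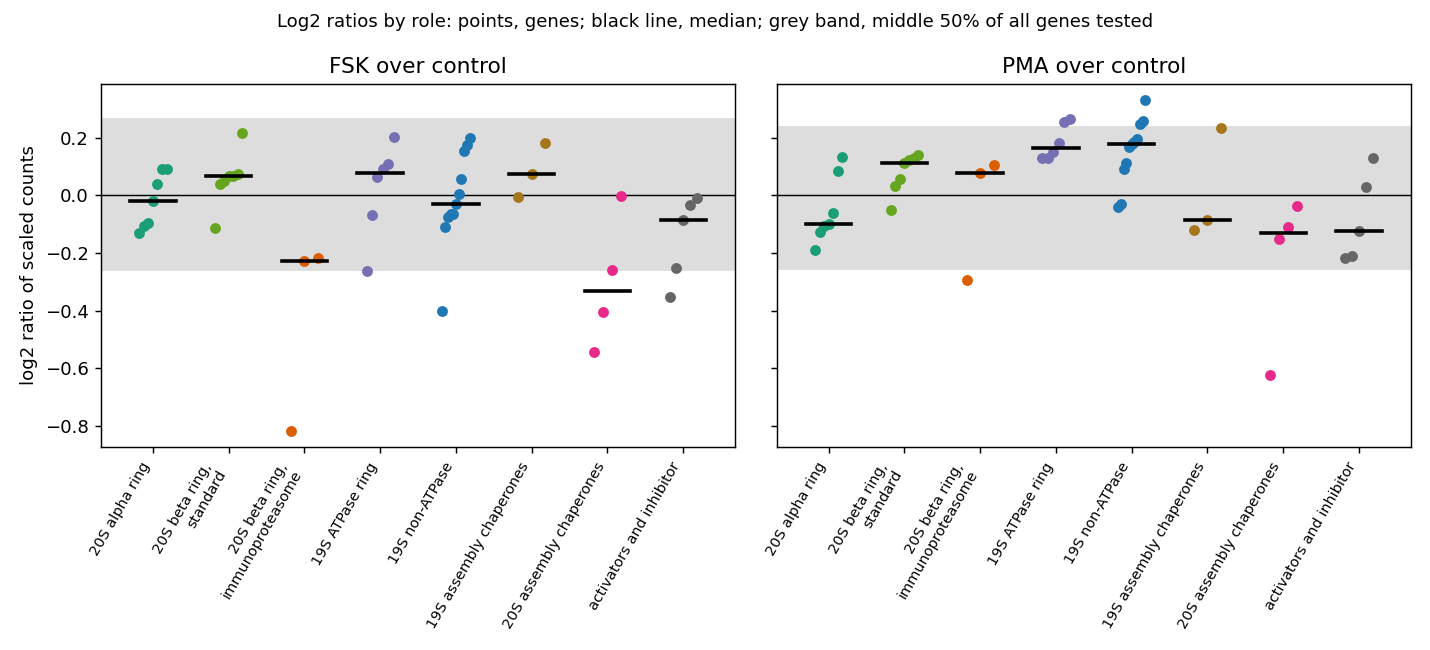
Log2 ratio of scaled counts of each member, by role, in the FSK and PMA libraries over the control library; black lines are role medians and the grey band holds the middle 50% of all genes tested. With PMA the 19S medians are 0.16 and 0.18 while the alpha ring median is -0.10, and with FSK the lowest medians are those of the immunoproteasome genes (-0.23) and the 20S assembly chaperones (-0.33).

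At the transcript level, the PMA difference of PSMD2 and PSMC5 was uneven between annotated starts (GENCODE release 29, GRCh38). Counts follow for 4 transcripts of these genes and not for the rest. Among the rest, ENST00000473991.1 of PSMD2 was at least 1.5-fold higher with PMA, and ENST00000433010.5 of PSMD2 at least 1.5-fold lower with FSK. The PSMD2 transcript that starts upstream on chromosome 3, ENST00000310118.8 at position 184298709, had 7674 scaled counts with FSH, 6766 with FSK, 6318 with SC79, 9053 with PMA and 8735 in the control library. The transcript that starts 1872 bases downstream, ENST00000439383.5 at position 184300581, had 14149 with FSH, 10068.5 with FSK, 13168 with SC79, 18518 with PMA and 13539 in the control library. With PMA the first was 1.04-fold (interval 1.01 to 1.07) and the second 1.37-fold (interval 1.34 to 1.40) of the control library, and with FSK both were lower, at log2 ratios of -0.37 and -0.43. The downstream transcript held 55.9% of the PSMD2 counts with FSH, 51.4% with FSK, 56.2% with SC79, 56.9% with PMA and 52.3% in the control library, so its share was above the control library with FSH and SC79 as well. For PSMC5 on chromosome 17, ENST00000310144.10 at position 63827183 had 2254 with FSH, 2483 with FSK, 2258 with SC79, 2264 with PMA and 2348 in the control library. ENST00000375812.8, which starts 501 bases downstream at position 63827684, had 1254 with FSH, 1477 with FSK, 1377 with SC79, 2166 with PMA and 1139 in the control library. The second was 1.90-fold of the control with PMA (interval 1.77 to 2.04), and its share of the gene's counts was 41.2% with PMA against 25.8% in the control library. The counts of overlapping transcripts are kallisto's estimates, whose own uncertainty is not part of these intervals, and exons of PSMC5 overlap those of FTSJ3 on the other strand. In the authors' deposited table the adjusted p of these 4 transcripts was 1 in each comparison. In that table, of 249 member transcripts with a mean of at least 20 scaled counts, 7 with FSH, 5 with FSK, 2 with SC79 and 8 with PMA had an adjusted p under 0.05, beside 2.8%, 3.49%, 2.79% and 3.22% of all 52935 transcripts of that abundance. Many were near 0 in 1 library. ENST00000584008.5 of PSMD12 had 163 scaled counts with FSH, 186 with SC79 and 214 with PMA against 2.24 in the control library. ENST00000541124.5 of PSME3 had 0.0844 with FSH and 0.00733 with PMA against 131 in the control library.

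**Figure D4:**
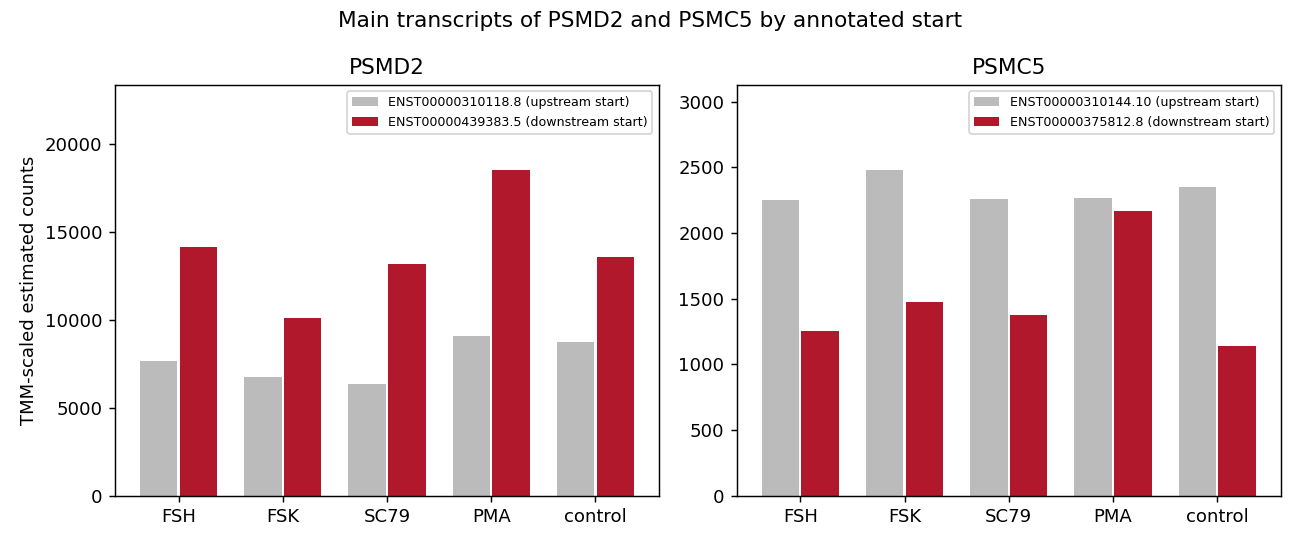
Scaled estimated counts of the upstream-start (grey) and downstream-start (red) main transcripts of PSMD2 and PSMC5 in the FSH, FSK, SC79, PMA and control libraries, with no error bars because each group is 1 library. The PMA bar of the downstream transcript is the highest of its colour in both panels, at 18518 and 2166 scaled counts.

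Protein kinase C is known to act on AP-1, the FOS and JUN dimer that binds TGANTCA. These letters, searched on both strands, lay in the windows of 3 members, or 7.50%. They lay in 9.37% of all genes with a window and 7.33% of those past the filter. They were thus about as common among members as elsewhere. The 3 members were PSMD2, PSMC5 and PSMD9, whose log2 ratios with PMA were 0.33, 0.25 and 0.23. Windows without the letters included those of PSMC4 (0.27 with PMA), PSMD8 (0.26) and PSMG1 (-0.63). The part of AP-1 in any of these values was not tested. The matches are shown, in capitals, because in PSMD2 and PSMC5 they lie beside the downstream starts.
PSMD2 (chr3:184300493-184300550, plus strand): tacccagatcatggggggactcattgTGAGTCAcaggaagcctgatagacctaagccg
PSMC5 (chr17:63827660-63827717, plus strand): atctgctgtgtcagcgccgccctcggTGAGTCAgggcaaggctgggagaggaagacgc
PSMD9 (chr12:121888540-121888594, plus strand): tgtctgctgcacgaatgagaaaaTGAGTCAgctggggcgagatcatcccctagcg
In PSMD2 the match begins 62 bases before the downstream start. In PSMC5 it begins 2 bases after the downstream GENCODE start, but at -35 from the RefSeq start of its window. The side of the PSMC5 start on which it lies thus depends on the annotation. For the other motifs searched, the share of members is set against all genes with a window and then those past the filter. The antioxidant response letters TGACNNNGC known for NFE2L1 and NFE2L2 lay in 15 members (37.5%, against 16.1% and 18.9%). CCAAT lay in 19 (47.5%, against 39.7% and 43.0%) and the interferon-gamma letters TTCNNNGAA in 7 (17.5%, against 9.38% and 8.8%). The cyclic AMP response letters TGACGTCA lay in 0 (against 2.25% and 3.6%). No overlap between matches of different motifs was found in the windows listed.

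Among the PSMG chaperones that assemble the core, PSMG1 was at least 1.2-fold lower than the control library with FSK and PMA and PSMG4 with FSK, and their other differences were inside 1.2-fold. POMP, another assembly factor of the core, was slightly above the control library, at 1.10-fold with FSK (interval 1.05 to 1.15) and 1.06-fold with PMA (interval 1.02 to 1.11). PSMG1, which with PSMG2 places the alpha subunits in a ring, had 977 scaled counts with FSH, 796 with FSK, 1009 with SC79, 752 with PMA and 1161 in the control library. It was 0.648-fold with PMA (interval 0.592 to 0.710), 0.686-fold with FSK (interval 0.626 to 0.751), 0.841-fold with FSH (interval 0.773 to 0.915) and 0.869-fold with SC79. The control library was the highest of the 5 for this gene, 1 of the 10 members below it in all 4 comparisons. Its partner PSMG2 was nearly level, at 1892 with FSH, 1883 with FSK, 1839 with SC79, 1698 with PMA and 1887 in the control library. PSMG3 had 855 with FSH, 805 with FSK, 867 with SC79, 938 with PMA and 962 in the control library, and PSMG4, its partner, had 378 with FSH, 287 with FSK, 378 with SC79, 352 with PMA and 380.2 in the control library. PSMG4 was 0.754-fold with FSK (interval 0.643 to 0.878), and as the least abundant member it had the widest intervals. On TMM scaling the 4 genes were all below the control library with FSK, SC79 and PMA, with median log2 ratios of -0.33, -0.09 and -0.13. With FSH 3 of the 4 were below it. With library totals alone, 1 of the 4 was above it with SC79, 1 with PMA and 2 with FSH. With protein_coding transcripts only, 1 of the 4 was above it with FSK. The counting intervals of PSMG2 with FSH, FSK and SC79, PSMG3 with PMA, and PSMG4 with FSH, SC79 and PMA took in the control level.
The 3 chaperones of the 19S base showed no shared direction. PSMD10, also known as gankyrin, had 2567 with FSH, 3013 with FSK, 2707 with SC79, 2445 with PMA and 2657 in the control library, log2 ratios of 0.18 with FSK and -0.12 with PMA. PSMD9 had 2035 with FSH, 2109 with FSK, 2128 with SC79, 2352 with PMA and 2002 in the control library, at 0.23 with PMA. PSMD5 had 2609 with FSH, 2749 with FSK, 2756 with SC79, 2605 with PMA and 2761 in the control library, at -0.08 with PMA.

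**Figure D5:**
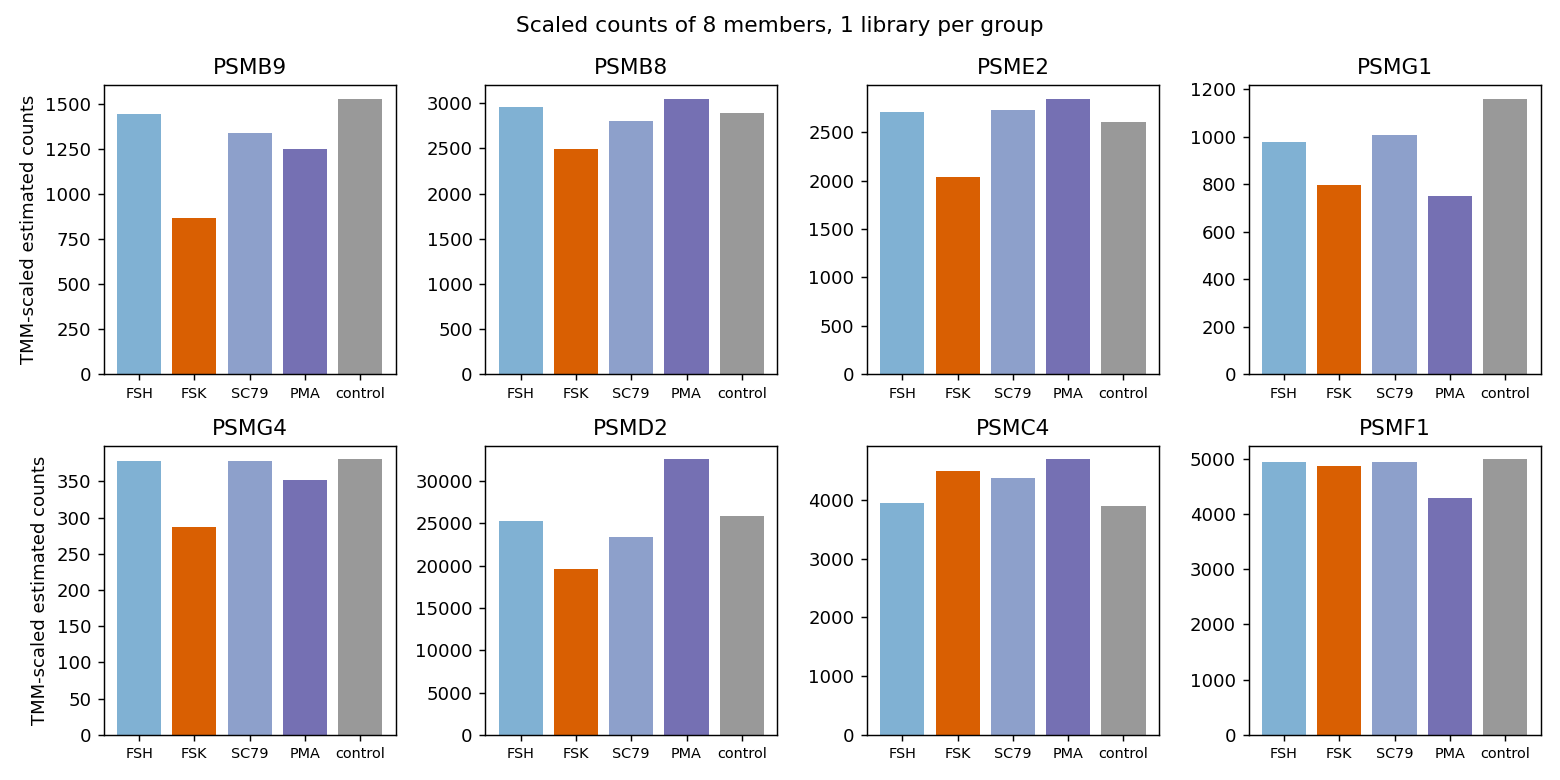
TMM-scaled estimated counts of 8 members (panels) in the FSH, FSK, SC79, PMA and control libraries, with each bar 1 library and no error bars. PSMB9 (868), PSME2 (2039) and PSMG4 (287) are lowest with FSK, PSMG1 is lowest with PMA (752), and PSMD2 is highest with PMA (32569.5).

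PMA set directly against FSK gave 8 members at least 1.2-fold higher and 2 lower, beside 26.1% and 25.7% of all genes. None differed by 2-fold, a size passed by 5.05% of all genes upward and 4.46% downward, and 33 of 46 were above the FSK library, beside 49.7% of all genes. The higher ones were PSMB8, PSMB9, PSMB10, PSMC3, PSMD2, PSMD3, PSME2 and PSMG4, which include all 3 immunoproteasome genes, and the lower ones were PSMA2 and PSMD10. PSMD2 was 1.66-fold (interval 1.63 to 1.69), PSMB9 1.44-fold (interval 1.32 to 1.57) and PSMA2 0.823-fold. Against the control library, PSMD2 was at 0.33 with PMA and -0.40 with FSK, and PSME2 at 0.13 with PMA and -0.35 with FSK, so both genes stood on opposite sides of it.

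Per kilobase of transcript, the members of a complex were not equally abundant in the control library. The role medians were 4365 scaled counts per kilobase for the alpha ring, 4210.1 for the standard beta ring, 1857 for the immunoproteasome genes, 2730.1 for the 19S ATPases, 2714 for the other 19S subunits and 1073 for the 20S assembly chaperones. PSMD2 was the highest at 12788, then PSMA7 at 9172 and PSMB4 at 8244, and PSMG4 the lowest at 406. For PSMB8, PSMB9, PSMB3 and PSMC4 much of the count lay in rows of alternate sequence copies without a length, 91.6% and 80.0% for PSMB8 and PSMB9 and 50% for PSMB3 and PSMC4, so their levels per length are less certain.

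The genes around the proteasome were read from lists of its regulators and partners. NFE2L1, the factor that drives subunit genes, had 14952 scaled counts with FSH, 19788 with FSK, 14647 with SC79, 18122 with PMA and 14099 in the control library, log2 ratios of 0.49 with FSK and 0.36 with PMA. NFE2L2 was at 0.51 with FSK and -0.11 with PMA. NFE2L3, a relative of NFE2L1, had 3893 with FSH, 1897 with FSK, 3783 with SC79, 3971 with PMA and 4532 in the control library, a log2 ratio of -1.26 with FSK. Of 15 regulators of subunit transcription, 6 were at least 1.2-fold higher and 1 lower with FSK (beside 25.2% and 24.7% of all genes), and 7 higher and 0 lower with PMA (beside 23.3% and 24.6%), led by MAFK (0.91) and MAFF (0.57) with FSK and MAFF (1.11) and MAFK (0.96) with PMA, small MAF partners of these factors. With FSK the lowest were NFE2L3 and NFYA (-0.21), and with PMA they were NFE2L3 (-0.19) and NGLY1 (-0.12).
Of 17 measured assembly and associated factors, 2 were higher and 0 lower with FSK and 3 higher and 0 lower with PMA, beside the same shares of all genes. ZFAND5, which activates the proteasome, was at 0.39 with FSK and 0.60 with PMA. POMP, the maturation protein of the core, was at 0.13 with FSK and 0.09 with PMA, and ADRM1, a ubiquitin receptor of the cap, at -0.06 and 0.29. The lowest were SEM1 (-0.19) and RAD23B (-0.13) with FSK and UCHL5 (-0.19) and RAD23B (-0.19) with PMA.

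Other large complexes were counted at the same size of 1.2-fold, which 25.2% of all genes passed upward and 24.7% downward with FSK, and 23.3% and 24.6% with PMA. Of 8 TRiC chaperonin subunits, 1 was lower with FSK (CCT5, -0.33) and 0 passed 1.2-fold with PMA. Of 10 COP9 signalosome subunits, 2 were higher and 1 lower with FSK (COPS2, 0.64, the highest) and 2 higher with PMA (COPS7A, 0.64). Of 14 subunits of the anaphase-promoting complex, 3 were higher and 4 lower with FSK and 0 higher and 3 lower with PMA, and 13 eIF3 subunits gave 1 lower with FSK and 5 lower with PMA (EIF3E, -0.64, the lowest). Among 5 measured ubiquitin genes and activating enzymes, UBA6 (-0.37) was the lowest with FSK, and RPS27A (-0.60), which encodes ubiquitin fused to a ribosomal protein, was the lowest with PMA.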

How the data were processed

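RNA from 5 pooled KGN samples was sequenced as poly(A) libraries. Trimmomatic, kallisto and edgeR are named in the submitters' processing notes, without versions; for the transcript index and genome build, the sources used here give none. The deposited count table holds estimated counts per transcript (179973 rows, not normalized), per the file headers. The authors' normalized values are a signal, the estimated counts times 1 constant per library. The authors' deposited table holds a log2 fold change per transcript, each with its p-value, raw and adjusted; how they set the dispersion is not given in the sources used here. For each gene name, rows of every biotype were summed, so the shares of all genes are not limited to protein-coding genes. All rows of the members are of protein-coding genes. Sums were scaled with TMM factors (edgeR 4.0.16, R 4.3.3), with DESeq2 1.42.0 as the alternative. They were rounded to whole numbers only to compute these factors and the intervals. The 303 rows without a gene name, 0.0535% to 0.0680% of a library's counts, were left out of library sizes. Genes needed a mean of 20 scaled counts, and ratios used a pseudocount of 1. Intervals are exact conditional binomial (Clopper-Pearson) at 95% and hold counting error alone. Those of a within-library ratio against the control ratio used a normal approximation on the log scale instead. PCR copies of a molecule, counted without identifiers, are not independent, so the intervals can be too narrow even for counting error. The intervals were tested on simulated independent counts, without PCR copies, assignment error or differences between cultures. That test therefore cannot show how well they hold in these libraries. No test between groups was made. A call is a ratio of at least 1.2-fold, or 2-fold with 100 scaled counts in the higher library. Shared sequence was read from 31-base words of GENCODE release 29 transcripts, in which 89.6% of the table's transcript identifiers and versions were found; coordinates are from that release and promoter windows from RefSeq GRCh38.p14. Exons of 19 members overlap a gene on the other strand, and 8 members have under 80% own words. The members and lists were chosen with earlier results of these data known. Values are given for the 3 highest and 3 lowest members of each comparison with the control, for the catalytic, activator and inhibitor genes, for members at the ends of a role group, and for the ends of each gene list. Values of some genes on these lists are not reported here.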

Additional observations from a re-analysis of the deposited data

How the results depend on the processing

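The medians and counts of members were recomputed under 9 other settings. DESeq2 size factors, a mean of at least 100 scaled counts, no filter on low counts, a pseudocount of 10, all rows of a symbol and the addition of 30 pseudogenes each moved no median by more than the counting spread and no count by more than 1.5 times. With library totals alone the PMA median was 0.15 and 7 members passed 1.2-fold, 6 higher and 1 lower, in place of 2 higher and 2 lower; PSMB9 with PMA was then -0.23. With the authors' normalized values the member medians were -0.17 (FSH), -0.19 (FSK), -0.26 (SC79) and -0.15 (PMA), and 2, 15, 23 and 18 members passed in the same order, all lower; the median of all genes moved with them, to -0.16, -0.16, -0.28 and -0.24. PSMC4 with PMA was then 0.03 and PSMD2 0.09. The 19S median with PMA was -0.06 on the authors' values, with 5 of 17 above 0; a scaling multiplies a whole library and leaves its distance from the median of all genes, 0.18, as it was. With protein_coding transcripts only, a setting chosen after seeing the data, 1 member passed with FSH and 1 with SC79, both lower, 1 higher and 5 lower with FSK, and 2 higher and 3 lower with PMA, where the median was 0.05 in place of 0.09; PSMC3 with FSK, at -0.2601 in place of -0.2640, no longer passed 1.2-fold. No value past 1.2-fold changed sign under these settings. No paired analysis was possible because each group is 1 library. Summarised per gene, counting intervals had a half-width of 0.0249 (PSMD2) to 0.211 (PSMG4) on the log2 scale, with a median of 0.0596. Depth therefore limits the assembly chaperones most. Single intervals went beyond these values, with half-widths of 0.0230 for PSMD2 with PMA and 0.225 for PSMG4 with FSK.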

Other observations

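Within PSMD13, a lid subunit gene, estimated counts of single transcripts differed from the control library in opposite directions. Its transcript ENST00000352303.9 had 597 scaled counts with FSH, 729 with FSK, 775 with SC79, 808 with PMA and 409.5 in the control library, while ENST00000525665.5, annotated for nonsense-mediated decay, had 645 with FSH, 543 with FSK, 787 with SC79, 799.7 with PMA and 1036 in the control library. The gene sum was 4879 with FSH, 4766 with FSK, 4987 with SC79, 5641 with PMA and 4979.6 in the control library, so the transcripts differ more than the gene. These transcripts overlap and their counts are estimates.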
